A study of Bos taurus with 100 samples.

Results

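The 8 genes described here are mitochondrially encoded genes of the respiratory chain, from complexes I, III, IV and V, as listed by Ensembl identifier for the cow. They were taken by identifier from the 2 deposited count tables. All 8 had a row in both tables, out of 24616 identifiers in all. The cells were retinal microvascular endothelial cells of the cow (Bos taurus), grown in culture to passage 3 without any treatment named, and captured singly on a microfluidic chip (Fluidigm C1). Run 1 gave 49 cells and run 2 gave 51. Endothelial cells line the small vessels of the retina. The labels name no animal, donor or separate culture, so each run is 1 sample and the runs are compared by their values, with no test. Intervals are 95% exact intervals of the counting error of reads, which is small here beside the spread between cells.

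Mitochondria carry a small circular chromosome of their own. It encodes core subunits of the respiratory chain: parts of complex I, which takes electrons from NADH, cytochrome b of complex III, the catalytic core of complex IV, which passes electrons to oxygen, and parts of complex V, the ATP synthase. These genes are transcribed inside the organelle as long precursors, which are cut into single mRNAs, so their RNAs share a template and a polymerase. All other subunits are encoded in the nucleus and imported. Endothelial cells are known to draw much of their ATP from glycolysis. In single-cell work, the share of mitochondrial reads in a cell is widely used as a measure of library quality. The RefSeq gene table of ARS-UCD2.0 lists 13 protein-coding genes on this chromosome, with 2 rRNA and 22 tRNA genes, but it holds none of the deposited identifiers (0 of 24616 matched). The 8 genes are therefore given by identifier, without a subunit for each, and their order below is an order of reads, not of transcripts per length. Reads of nuclear copies of mitochondrial sequence cannot be told apart from these counts. The marker genes of endothelium and the nuclear respiratory chain genes on the lists for this work could not be looked up for the same reason and were not analysed here.

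Some cells stood apart, and values are given with and without them. Run 1 cells held 230083 to 798667 reads assigned to genes and run 2 cells 47118 to 3693862. Run 2 cells 74 and 87 were dominated by the genes described here and are treated separately. Run 1 cells 12 and 47 had reads of 43 and 37 of the 52 genes seen in at least 90% of run 2 cells and at most 10% of run 1 cells, against at most 4 in any of the other 47 run 1 cells. In run 2, 7 pairs of cells in neighbouring wells had profiles closer to each other than any other pair of that run without cells 74 and 87, and are described at the end.

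Most of the rows were high in most cells. Each of the 8 genes had reads in all 100 cells, with at least 262 reads per gene in a run 1 cell and at least 26 in a run 2 cell. By summed reads they ranked 3 to 88 of all genes in run 1 and 3 to 112 in run 2 without cells 74 and 87. ENSBTAG00000043560 and ENSBTAG00000043561 were among the 50 genes with the most reads in every cell of both runs. ENSBTAG00000043550 was among them in 40 of 49 run 1 cells and in 30 of the 49 run 2 cells other than 74 and 87, with a lowest rank of 219 in a run 2 cell. ENSBTAG00000043563 had the fewest reads of the 8 and was outside the leading 100 genes in most cells. It was among the leading 100 genes in 24 run 1 cells and in 13 of these run 2 cells, and its rank fell as low as 233 in run 1 and 738 in run 2.

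The 8 genes together took a few percent of the reads of most cells, and less in run 2 than in run 1 once cells 74 and 87 were set aside. In run 1 the share was lowest in cell 22 at 2.99%, had a median of 4.75% and was highest in cell 34 at 11.5%. In the 49 run 2 cells other than 74 and 87 it ran from 1.48% in cell 76 through a median of 3.45% to 7.71% in cell 71. The runs overlapped, but 45 of these 49 run 2 cells lay below the run 1 median and 15 lay below the lowest run 1 cell. Those 15 take in all 6 run 2 cells of well column 2 (1.48% to 2.64%), each in a close pair. Cells 50 and 75, their partners in 2 of the pairs, are among the 15 too, so the cells are not separate units. Summed over cells, the share was 5.05% in run 1 (interval 5.04% to 5.06%) and 3.53% in run 2 without those cells, 1.43-fold higher in run 1. With cells 74 and 87 counted in, the run 2 share was 4.40%, and the fold fell to 1.15. With those cells and equal weight per cell the direction turned, with mean shares of 5.02% in run 1 and 5.81% in run 2, and it turned likewise with all cells thinned to 47000 reads (5.00% and 5.815%). Run 1 cells 29 and 34, at 11.1% and 11.5%, stood above the rest of their run, where the next was cell 49 at 8.31%. At 47000 reads drawn per cell, cells 29 and 34 had 4060 and 4511 genes with a read, against a run 1 median of 4750.

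**Figure D1:**
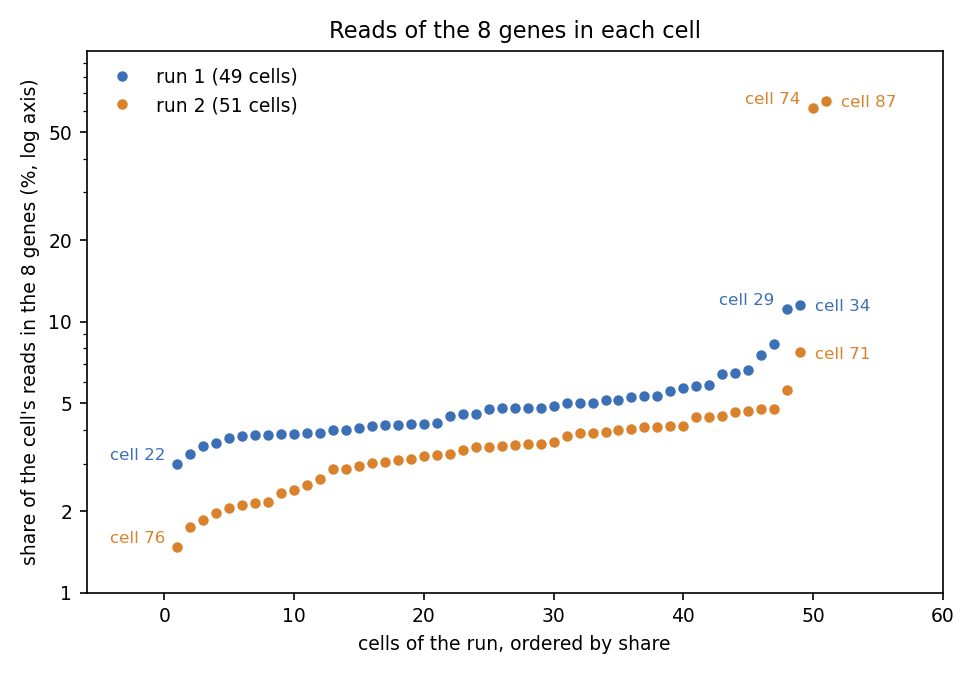
Share of each cell's reads in the 8 genes (percent, log axis), with the cells of each run ordered by share; each point is 1 cell. Run 2 cells 74 and 87 lie at 61.3% and 65.5%, and the other run 2 cells lie between 1.48% and 7.71%, against 2.99% to 11.5% in run 1.

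The 2 genes with the most reads were ENSBTAG00000043560 and ENSBTAG00000043561. ENSBTAG00000043560 took 0.795% to 3.24% of the reads of a run 1 cell, with a median of 1.28%, and 0.389% to 1.88% in run 2 without cells 74 and 87, with a median of 0.941%. ENSBTAG00000043561 took 0.799% to 3.06% in run 1 (median 1.26%) and 0.349% to 2.24% in run 2 (median 0.852%). Both were lower in run 2 in most cells: 46 and 43 of the 49 run 2 cells lay below the run 1 median of ENSBTAG00000043560 and of ENSBTAG00000043561. Together they were the leading pair of the 8 in every one of the 100 cells.

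ENSBTAG00000043556 followed, with 0.393% to 1.74% in run 1 (median 0.627%) and 0.148% to 0.877% in run 2 without cells 74 and 87 (median 0.422%). It showed the widest gap between the runs, 1.54-fold higher in run 1 by summed reads. In 21 of 49 run 2 cells it lay below every run 1 cell.

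ENSBTAG00000043558 did not separate the runs. It took 0.135% to 1.12% of reads in run 1 cells, with a median of 0.361%, and 0.0923% to 0.789% in run 2 cells without 74 and 87, with a median of 0.390%. Its median cell was thus higher in run 2, while its summed share was 1.21-fold higher in run 1, where 4 cells lay above every run 2 cell. In 30 of the 49 run 2 cells it lay above the run 1 median.

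The remaining 4 genes took smaller shares and were lower in run 2 by median and by sum. ENSBTAG00000043584 had medians of 0.356% in run 1 (0.207% to 0.851%) and 0.272% in run 2 without cells 74 and 87 (0.0765% to 0.558%). ENSBTAG00000043577 had medians of 0.309% (0.178% to 0.963%) and 0.242% (0.0736% to 0.610%). ENSBTAG00000043550 had medians of 0.266% (0.1098% to 0.822%) and 0.210% (0.0725% to 0.777%). The ranges of all 3 overlapped widely between the runs. ENSBTAG00000043563 was lowest, with medians of 0.116% (0.0657% to 0.336%) and 0.0884% (0.0328% to 0.269%).

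**Figure D2:**
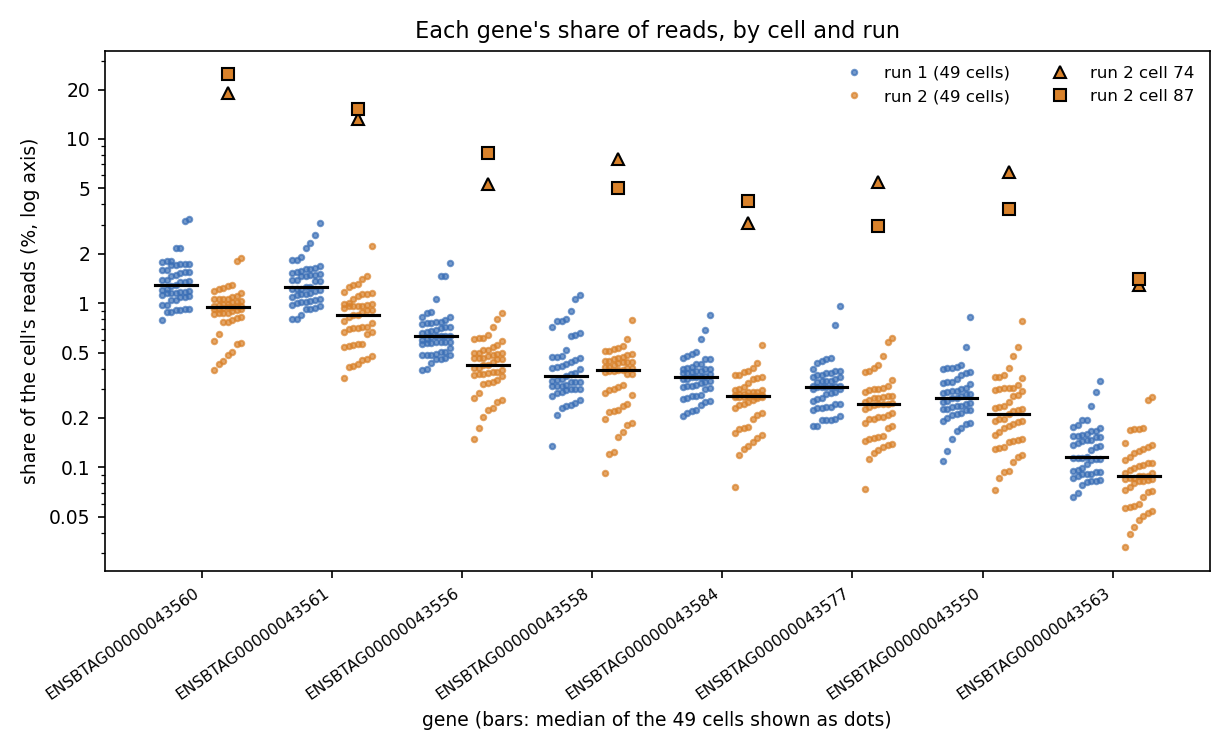
Share of each cell's reads (percent, log axis) for each of the 8 genes, by run; dots are single cells, with run 2 cells 74 and 87 as separate symbols, and bars are medians of the 49 cells shown as dots. The run 2 median is below the run 1 median for each gene but ENSBTAG00000043558, at 0.390% against 0.361%.

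Between the runs, the 8 genes moved by less than 2-fold. Their log2 ratios of run 2 over run 1 from summed reads ran from -0.63 to -0.22 without cells 74 and 87, and all 8 were below 0. With these cells counted in they ran from -0.35 to 0.14, and ENSBTAG00000043550 (0.14) and ENSBTAG00000043558 (0.03) were above 0. None of the 8 reached a 2-fold difference in either setting. Of all 6378 genes with at least 20 CPM (reads per 1e6 reads assigned to genes) in a run, 30.5% did, and 30.7% of 6403 without cells 74 and 87. The share depends on level: with all cells and a limit of 1 CPM it was 42.5% of 12058 genes. The lowest of the 8 genes had 1332 CPM in run 1 and 1010 CPM in run 2 without those cells. The share among genes of like level was not taken. The median log2 ratio was -0.42 for the 8 genes and 0.20 for all genes without cells 74 and 87, and -0.18 and 0.18 with them. Of all genes, 40.6% were lower in run 2 without those cells. The run of capture, the depth of the libraries and any difference of culture or animal cannot be told apart in this comparison.

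The 8 genes rose and fell together from cell to cell within each run. Over the 49 cells of run 1, the Spearman correlation of log2(CPM + 1) had a median of 0.56 over the 28 pairs of genes and ran from 0.33 to 0.81. Over the 49 run 2 cells without 74 and 87 the median was 0.58, from 0.355 to 0.82. The 4454 other genes compared had 20 CPM or more in both runs and were read in 50% or more of the cells of each. Between the 8 genes and these, the median was -0.04 in run 1 and -0.01 in run 2. All 28 pairs in each run lay above the 95th percentile of those values, 0.22 and 0.27. This was not a comparison at equal level. Only 75 of the 4454 genes in run 1 and 103 in run 2 had at least the summed reads of the lowest member. Counting noise lowers the correlations of genes with few reads. The cells share a chip, a run and a range of depths, so these correlations are descriptions without a p-value. The check set for reading the rows as mitochondrial was high levels and covariation. On covariation it was met by all 8 in that every pair was positive in both runs. Whether they covary more than genes of like level was not tested. The check named no limit for level. Taking the leading 100 genes of a cell as the limit, 7 of the 8 met it in most cells. ENSBTAG00000043563 did not, though by summed reads it ranked 88 in run 1 and 112 in run 2 without cells 74 and 87.

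Some members were closer to each other than the rest. ENSBTAG00000043556, ENSBTAG00000043560 and ENSBTAG00000043584 were the tightest group, with correlations of 0.79 to 0.81 in run 1 and 0.77 to 0.82 in run 2. In run 2 ENSBTAG00000043577 also followed ENSBTAG00000043584 at 0.82, against 0.65 in run 1. The weakest pair of run 1 was ENSBTAG00000043558 with ENSBTAG00000043563 at 0.33. That of run 2 was ENSBTAG00000043550 with ENSBTAG00000043558 at 0.355.

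**Figure D3:**
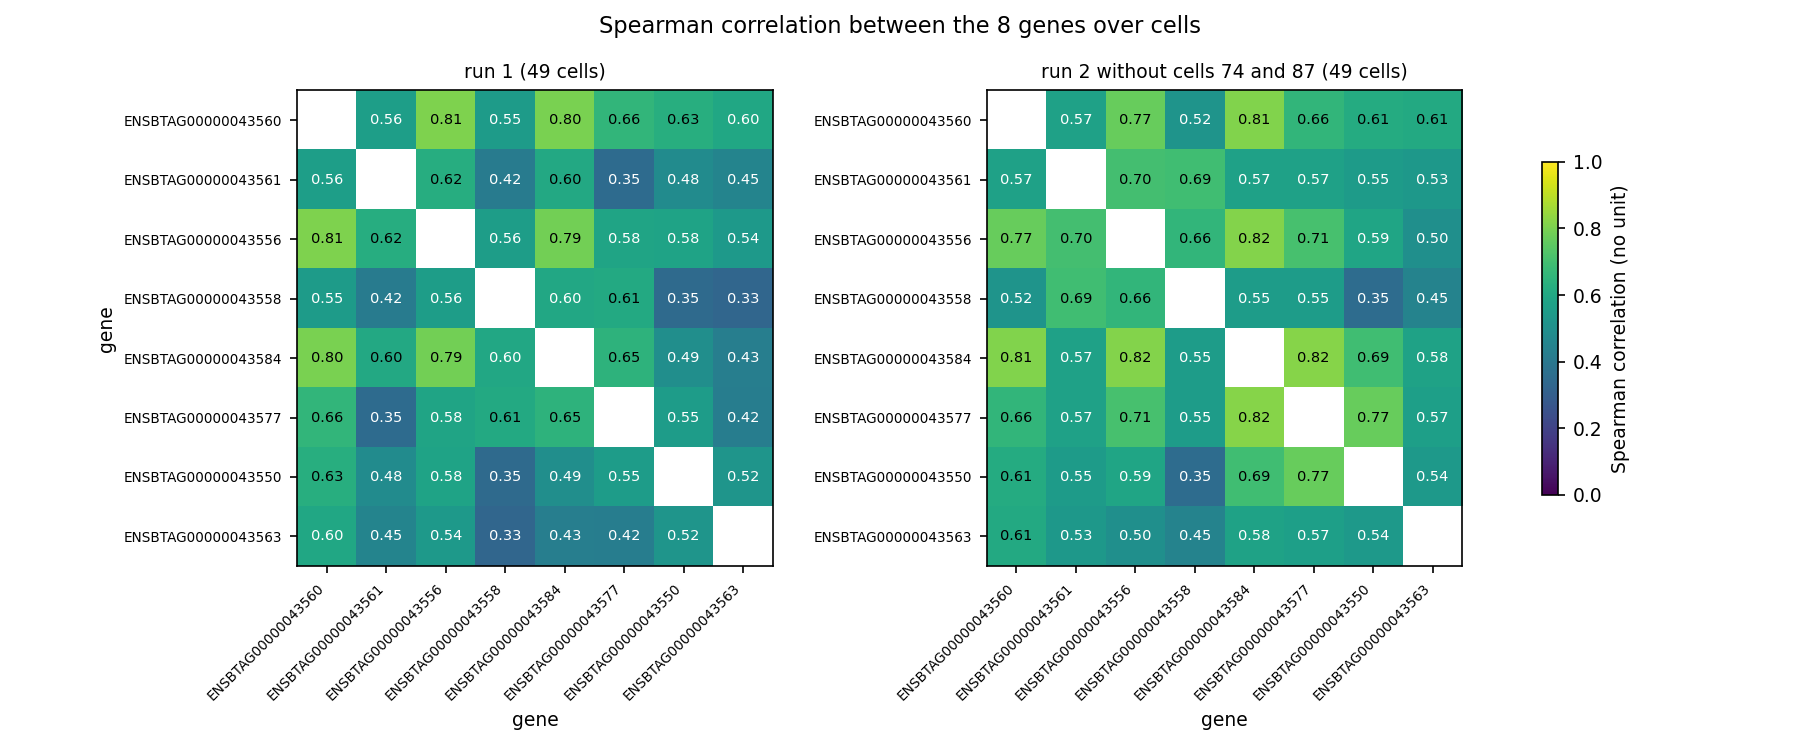
Spearman correlation (no unit, colour scale 0 to 1) of log2(CPM + 1) between the 8 genes over the 49 cells of run 1 and the 49 cells of run 2 other than 74 and 87. Every pair is positive in both runs, from 0.33 to 0.82.

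Within the set, the make-up was steadier than the level. In run 1 the share of ENSBTAG00000043560 in the set's reads had a coefficient of variation of 10.7% over cells, against 35.6% for its share of all reads. ENSBTAG00000043556 and ENSBTAG00000043584 were nearly as steady, at 12.2% and 13.6% of the set, and ENSBTAG00000043558 varied most, at 30.9%. In run 2 without cells 74 and 87, ENSBTAG00000043560 had 15.6% against 31.3%. There ENSBTAG00000043563 varied most, at 37.8% against 49.2%. Each gene is part of the set it is divided by, which by itself can lower the variation of its share, most for the leading genes. The 3 leading genes took 57.8% to 75.0% of the set's reads in a run 1 cell (median 69.3%) and 54.3% to 72.1% in a run 2 cell without 74 and 87 (median 65.2%). They were the leading 3 in 45 of 49 run 1 cells and in 34 of these 49 run 2 cells. The median share of the set was higher in run 2 for ENSBTAG00000043558, at 10.6% against 7.99% in run 1, and lower for ENSBTAG00000043561, at 24.4% against 27.8%. Run 1 cell 12, which held genes of run 2, had the highest ENSBTAG00000043558 share of the set in its run at 17.6% and the lowest share of the 3 leading genes. Run 1 cell 47, which also held such genes, was at neither extreme. There ENSBTAG00000043558 took 0.776% of all reads, out of 6.65% for the set. Its share of the set in cell 47 was thus also high, above the run 1 upper quartile of 9.93%.

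The 8 genes varied between cells somewhat more than other genes with as many reads, by their medians. Their coefficients of variation over cells were 32.4% to 49.8% in run 1 (median 39.6%) and 31.3% to 54.2% in run 2 without cells 74 and 87 (median 39.3%). Other genes with at least the summed reads of the lowest member had medians of 35.6% (75 genes, quartiles 26.8% and 44.3%) and 32.0% (103 genes, quartiles 26.9% and 41.1%). In run 2, 7 of the 8 genes lay above that median and 3 above that upper quartile. In run 1 only ENSBTAG00000043558 lay above the upper quartile, at 49.8%. There ENSBTAG00000043560 was level with the median at 35.6%, and ENSBTAG00000043561 and ENSBTAG00000043584 lay below it, at 33.3% and 32.4%. The share of the set had little relation to depth. Its Pearson and Spearman correlations with total reads were 0.07 and 0.07 in run 1 and 0.18 and 0.13 in run 2 without cells 74 and 87. Leaving out the 2 cells farthest from the median depth, the Pearson values were -0.07 and 0.05. Cells with a higher share had somewhat fewer genes with a read at 47000 reads, with Pearson and Spearman values of -0.29 and -0.30 in run 1 and -0.10 and -0.24 in run 2. These are descriptions over 49 cells each.

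Few other genes followed the set from cell to cell. Of the 4454 other genes, most with fewer summed reads than any member, 8 had a Spearman correlation with the set above 0.5 in both runs. The closest by the lower of the 2 values was ENSBTAG00000043545, at 0.80 in run 1 and 0.75 in run 2 without cells 74 and 87. It was followed by ENSBTAG00000043546 at 0.70 and 0.79. All 8 share the first 16 characters of their identifier with the members, as do 78 identifiers in all, a property looked at after the values were seen. Of the 70 such identifiers that are not members, 13 passed the limits on reads, and the first 10 places in the order of likeness were theirs. Of genes with other identifiers, the best reached 0.39 in the run where it was lower. The most opposite were ENSBTAG00000002018, at -0.44 in run 1 and -0.58 in run 2, and ENSBTAG00000012159, at -0.47 and -0.44. The files do not pair any of these identifiers with a name.

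**Figure D4:**
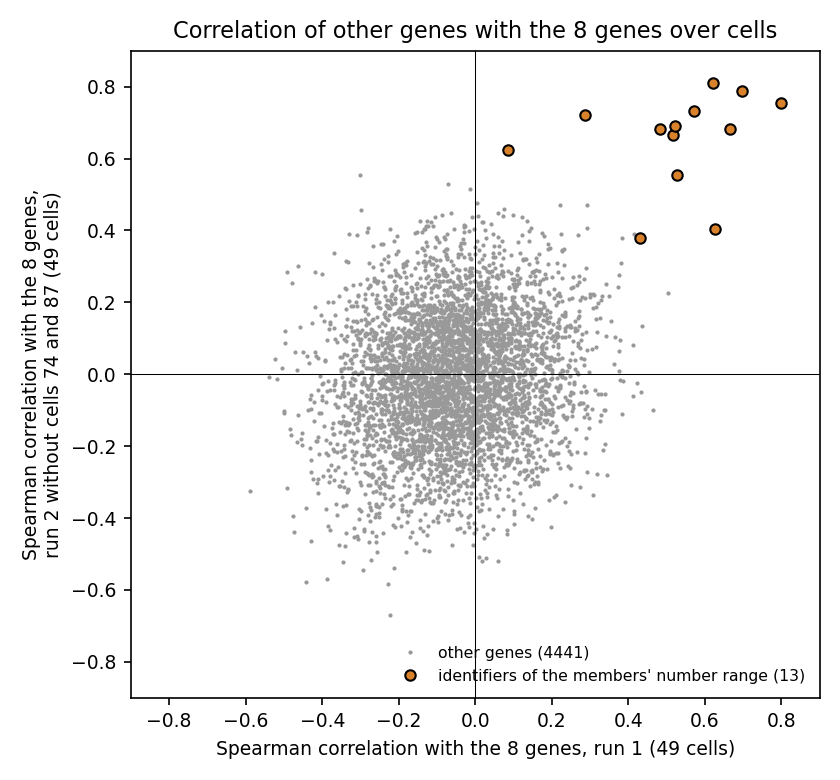
Spearman correlation over cells of each of 4454 other genes with the summed 8 genes, in run 1 (x axis) and in run 2 without cells 74 and 87 (y axis), 49 cells each. Of the 13 identifiers that share their first 16 characters with the members, 8 lie above 0.5 in both runs. The gene with another identifier that follows the set best reaches 0.39 in its lower run.

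In run 2 cells 74 and 87 the 8 genes took most of the reads. The share was 61.3% in cell 74 (interval 61.2% to 61.4%) and 65.5% in cell 87 (interval 65.4% to 65.6%), which was 17.7 and 19.0 times the median of the other 49 run 2 cells. No other cell of either run reached 12% of reads. These 2 cells gave 1.46% of the reads of run 2 and 21.1% of its reads in the 8 genes.

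All 8 genes were raised in both cells. ENSBTAG00000043560 was the gene with the most reads in each, at 19.0% in cell 74 and 24.7% in cell 87, against at most 1.88% in the other run 2 cells. ENSBTAG00000043561 took 13.2% and 15.2%. ENSBTAG00000043563, the lowest of the 8, took 1.29% and 1.41%, and was still the gene with the 12th most reads in each. The folds over the median of the other 49 cells ran from 11.3 (ENSBTAG00000043584) to 29.9 (ENSBTAG00000043550) in cell 74 and from 12.2 (ENSBTAG00000043577) to 26.3 (ENSBTAG00000043560) in cell 87. The 2 cells differed in make-up: ENSBTAG00000043550, ENSBTAG00000043558 and ENSBTAG00000043577 took larger shares in cell 74 and the other 5 in cell 87. Across the 8 genes, the order of shares within the set had a Spearman correlation with the median of the other run 2 cells of 0.71 in cell 74 and 0.98 in cell 87.

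What was left outside the 8 genes in these cells was also narrow. The 10 genes with the most reads were the same in both, 7 of them members, and held 87.9% and 84.0% of the reads. The leading gene that is not a member was ENSBTAG00000043567, at 15.7% and 12.5%, where the other run 2 cells had a median of 0.779%. In run 1 ENSBTAG00000043567 had rank 1 by reads, with a median of 2.37% per cell. The identifiers that share their first 16 characters with the members filled the first 17 places by reads in cell 74 and the first 15 in cell 87. Members and these identifiers together made up 94.0% and 89.6% of the reads. In the other run 2 cells their median was 5.22% and their highest value 11.8%. At 47000 reads, cells 74 and 87 had 836 and 1259 genes with a read, against at least 3687 in the others. That draw includes the reads of the members and these identifiers, so few reads were left for other genes. Without thinning, cells 74 and 87 had 4135 and 5142 genes with a read, and cell 90, with 47118 reads, had 5284. Cells 74 and 87 held 286116 and 266995 reads outside the 8 genes, against a median of 1914175 in the other cells, and 3 of those cells had fewer. Most of these reads were of the identifiers that share their first 16 characters with the members. Outside both, cells 74 and 87 held 44132 and 80434 reads. The part of RNA loss or of capture in these values was not tested.

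The 7 pairs of cells with the closest profiles differed in the 8 genes. Across the 24608 other genes, the Pearson correlation of log2(CPM + 1) between the cells of a pair was 0.884 (cells 89 and 90) to 0.993 (cells 50 and 51), and 3 pairs reached 0.99. It was at most 0.879 in the 1169 other pairs of run 2 without cells 74 and 87 (median 0.76). The lowest close pair was thus barely above the highest of the others. The share of the set differed by 1.42-fold to 1.89-fold between the cells of each pair, where all 1176 pairs of these 49 cells had a median of 1.35-fold. The 21 other pairs in neighbouring wells of run 2 had a median of 1.19-fold and a range of 1.03 to 2.72, which takes in all 7 close pairs. The 26 pairs in neighbouring wells of run 1 had a median of 1.32-fold and reached 3.44-fold. The 7 close pairs had a median of 1.62-fold, and each of them lay above all of these medians. Differences as large were also reached by other pairs in neighbouring wells.

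The difference had 1 direction in well columns 1 and 2. In all 6 pairs of these columns the share was lower in column 2. It was 2.87% in cell 50 and 1.97% in cell 51, 3.53% in cell 68 and 2.49% in cell 69, and 2.39% in cell 75 and 1.48% in cell 76. It was 4.67% and 2.64% in cells 97 and 98, 3.54% and 2.15% in cells 94 and 95, and 3.35% and 2.17% in cells 89 and 90. The 6 cells of column 2 lay among the 12 lowest of the 49 run 2 cells without 74 and 87. Depth did not follow the same order throughout: cell 51 had more reads than cell 50, and the column 2 cell had fewer in the other 5 pairs. In run 1, the 7 cells of column 2 had shares of 3.85% to 5.69%, with a median of 3.99%, against 4.75% for the whole run. The 3 run 1 cells of column 1 had a median of 4.75%. Of the other run 1 columns, only 9 and 12 had lower medians than column 2, at 3.73% and 3.91%. Cells 70 and 71, in columns 5 and 6, went the other way, at 4.08% and 7.71%, with all 8 genes higher in cell 71.

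The size of the difference depended on the gene. ENSBTAG00000043560 differed least, with log2 ratios of column 2 over column 1 of -0.32 to 0.01 (median -0.17). ENSBTAG00000043550 came next, at -0.59 to -0.29. ENSBTAG00000043556 and ENSBTAG00000043561 differed most, with medians of -1.05 and -0.94 and values of -1.15 to -0.70 and -1.22 to -0.71. The other 4 genes had medians of -0.81 to -0.69. In all, 47 of the 48 values of a member in a pair were lower in column 2, the exception being ENSBTAG00000043560 in cells 68 and 69. For 100 other genes with as many reads and with identifiers outside the members' range, 38.7% of 600 values were lower, and the median log2 ratio was 0.04 to 0.14 in the 6 pairs. The 6 pairs share their columns and their run, so they are not separate replicates, and the part of material shared between wells or of library preparation in this difference was not tested.

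**Figure D5:**
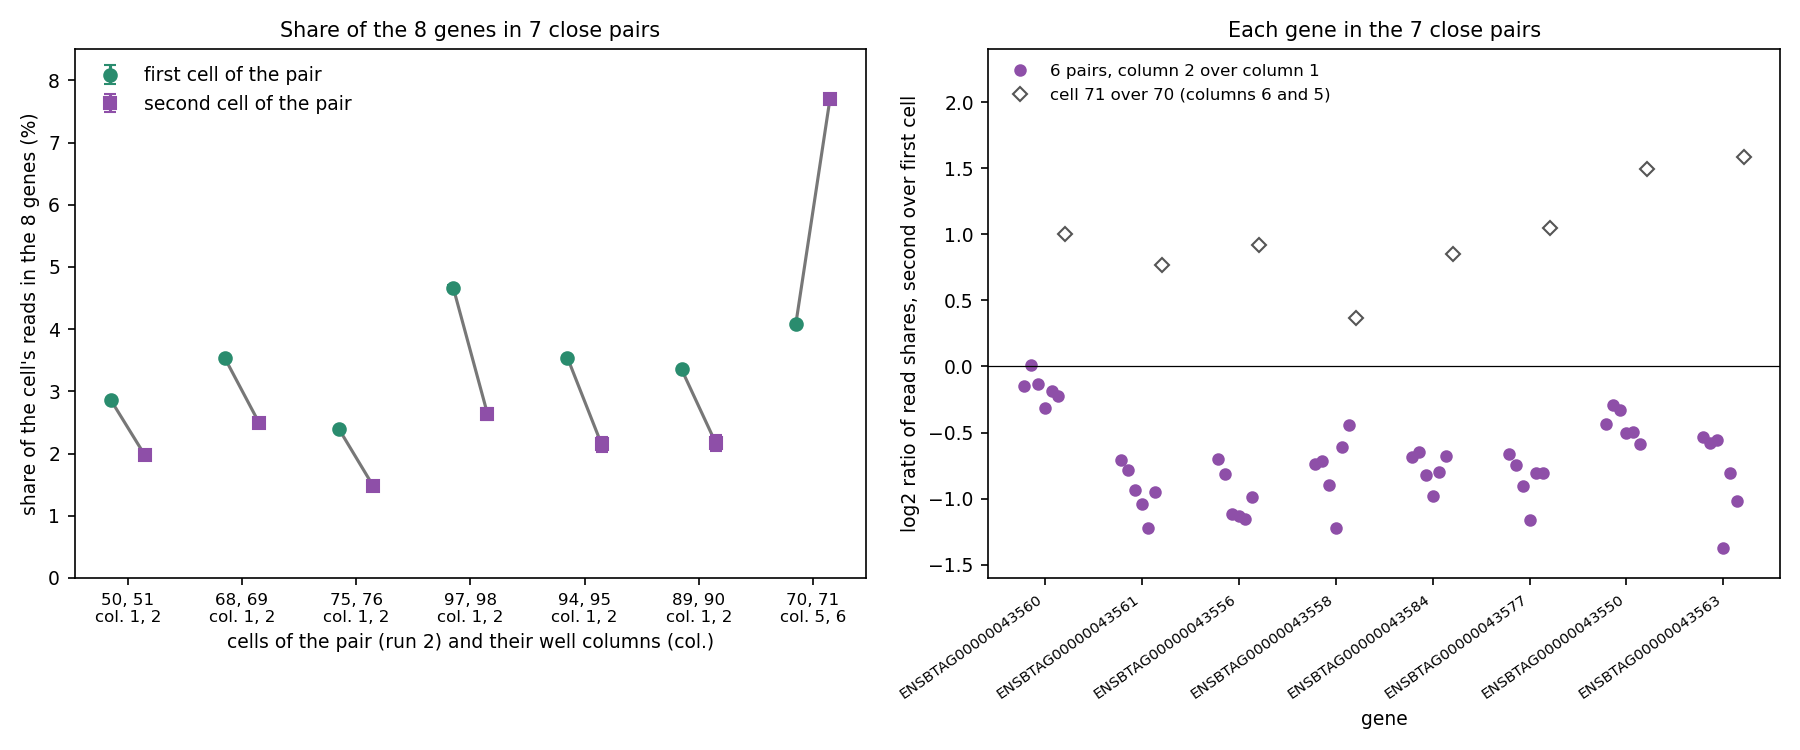
Left, share of reads in the 8 genes (percent) in both cells of the 7 pairs, with 95% exact intervals of the counting error of reads. Right, log2 ratio of each gene's share of reads, second over first cell of the pair. Filled points lie below 0 in 47 of 48 cases, and ENSBTAG00000043560 lies nearest to 0, at a median of -0.17.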

How the data were processed

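For each run there is a table of raw counts, as the authors deposited it, with 24616 Ensembl identifiers by cell. STAR 2.5.3a, HTSeq 0.6.1p1 and build UMD3.1 are named in the submitters' processing notes. Options and annotation release are not given in the sources used here. Reads carry no molecular identifiers, so copies made by amplification are counted as separate reads. The intervals thus cover the counting error of reads only, not that of molecules, and are too narrow for the latter.

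Shares are a gene's reads over all reads assigned to genes in a cell or, summed, in a run. Intervals are Clopper-Pearson intervals. Each run is 1 sample, since the labels name no animal or culture, so no test was made. Correlations use log2(CPM + 1). Thinned cells are draws of 47000 reads without replacement. The members and lists were chosen with earlier results of these data known. The other genes given by identifier were the 2 with the highest and the 2 with the lowest correlation with the set, by the weaker of both runs, with at least 20 CPM and a read in 50% of cells in each run; ENSBTAG00000043567 was added after its values were seen. The column comparison and the range of identifiers were also looked at after the values were seen. The scripts were tested on simulated counts. Python 3.11.15, scipy 1.17.1 and, for TMM factors as an alternative, edgeR 4.0.16 were used.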

Additional observations from a re-analysis of the deposited data

How the results depend on the processing

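The size and direction of the difference between the runs changed with run 2 cells 74 and 87, and it was larger without them. The log2 ratio of the set, run 2 over run 1, was -0.20 from summed reads and -0.52 without these cells. It was 0.21 with equal weight per cell and 0.22 with cells thinned to 47000 reads, settings in which these 2 cells weigh as much as any other. It was -0.45 from medians, -0.18 without cells under 300000 reads, -0.19 without the shallower cell of the 7 close pairs, -0.21 with the members out of the denominator, -0.26 with the 10 other leading genes out of it, -0.29 with TMM factors, -0.32 with median-of-ratios scaling and -0.16 without the run 1 cell of the highest share. Median-of-ratios scaling moves every ratio by -0.12 and, without the 2 cells, by -0.14. The settings that follow, and the run 1 cell of the highest share, were chosen after seeing the data. Without cells 74 and 87 the ratio was -0.518 also without run 1 cells 12 and 47, -0.63 with TMM, -0.66 with median-of-ratios scaling, -0.46 from medians, -0.50 without cells under 300000 reads and -0.53 without the shallower cells of the pairs.

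The share of the set in run 1, 5.05%, was 5.02% as a mean and 4.75% as a median over cells, 5.00% thinned, 5.01% without cells under 300000 reads, 4.92% without the cell of the highest share, 5.31% and 5.68% with members or the 10 other leading genes out of the denominator, and 3.63% without ENSBTAG00000043560. In run 2, 4.40% became 5.81% as a mean, 3.49% as a median, 5.815% thinned, 4.41% without cells under 300000 reads, 3.53% without cells 74 and 87, 4.425% without the shallower cells of the pairs, 4.61% and 4.74% with those denominators, and 3.16% without ENSBTAG00000043560.

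Single genes changed sign in 21 of 104 alternatives. With equal weight and thinned, the log2 ratios were 0.0156 and 0.014 for ENSBTAG00000043561, 0.32 and 0.33 for ENSBTAG00000043560, 0.32 and 0.33 for ENSBTAG00000043577, 0.16 and 0.15 for ENSBTAG00000043563 and 0.11 and 0.11 for ENSBTAG00000043584. ENSBTAG00000043556 was at 0.011 thinned. ENSBTAG00000043550, at 0.14 with all cells, was -0.27 from medians and -0.22, -0.33 and -0.36 without cells 74 and 87, as summed, with TMM and with median-of-ratios scaling. ENSBTAG00000043558, at 0.03, was -0.0391 with the 10 other leading genes out of the denominator, -0.0675 with TMM and -0.10 with median-of-ratios scaling, and -0.28, -0.39 and -0.42 without cells 74 and 87 in the same 3 scalings. None of the 8 passed 2-fold between the runs at a minimum of 10 or 1 CPM or without cells 74 and 87. The median correlation between members stayed within 0.51 to 0.67 in its 9 alternatives. No paired analysis was possible because cells are numbered once across both runs and none has a partner. Depth limits single genes most in run 2 cells 90, 95 and 98.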
